A study of Mus musculus with 12 samples.

Results

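Death receptors are membrane proteins of the tumour necrosis factor (TNF) receptor family that start programmed cell death when a ligand on another cell binds them. The 7 genes followed here encode the receptor Fas, the death ligands Fasl and Tnfsf10 (TRAIL), the initiator caspase Casp8, its decoy relative Cflar (c-FLIP), and the inflammatory caspases Casp1 and Casp4. They were taken by symbol from a table of estimated counts for 20778 genes, and all 7 passed the count filter that left 12122 genes to test. The libraries were RNA of CD8 T cells that had been isolated with magnetic beads from spleens of C57BL/6 mice, 6 weeks old by the labels (the study's methods give an older range for its mice), and kept in culture for 6 h. They formed 4 groups of 3: Naïve (no stimulus), αCD3 (antibody to the T cell receptor complex, 1 µg/ml), IFNγ (the cytokine interferon gamma, 70 ng/ml) and LPS (lipopolysaccharide, a bacterial cell wall component, 1 µg/ml). The labels name no further allele or agent. The methods describe a default T cell culture with interleukin-2 on plates coated with anti-CD3, and whether it applied to these libraries, the Naïve group included, is not stated. The labels also do not say whether the 3 replicates came from separate animals or cultures, so p-values measure only the spread between these libraries.

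When Fasl or Tnfsf10 engages its receptor, the adaptor Fadd gathers procaspase-8 molecules, which cut one another and pass the signal to further caspases. The Cflar protein sits in the same complex in place of a caspase and, at high levels, holds this cleavage back. Casp1 and Casp4 act elsewhere, in inflammasome pathways in which they cut gasdermin D and, for Casp1, the precursor of interleukin-1β. CD8 T cells use Fasl as a killing molecule beside perforin and granzymes, and Fas on T cells takes part in their removal after a response.

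The libraries held 10196248 to 27610175 estimated counts. Beside Cd8a (234 CPM in Naïve, where CPM are counts scaled to a common library size), markers of other blood cells were present. The 12 B cell markers summed to 2129 to 3982 CPM and exceeded the 10 T cell markers (1451 to 2555 CPM) in every library except αCD3 replicate 3, so the RNA was not of CD8 T cells alone. No T cell or B cell marker was at 0 in any library. In bulk RNA, fewer cells of a type and less RNA per cell cannot be told apart. The part of each cell type in the levels of the 7 genes was not tested. The 14 myeloid markers summed to 850 to 1506 CPM in Naïve, 792 to 1537 in αCD3, 1422 to 2400 in IFNγ and 1006 to 1630 in LPS. For 5 erythroid markers the sums were 336 to 1867, 405 to 1576, 569 to 4114 and 478 to 2885 CPM, lowest in replicate 1 of each group. The mean T cell sum was 1868 CPM in Naïve, 2465 in αCD3, 1892 in IFNγ and 1552 in LPS, and the mean B cell sum 3818, 2681, 3072 and 2493 CPM. Replicate 1 of each group stood apart from replicates 2 and 3, which lay close together, and libraries with the same replicate number deviated together in all 4 groups, so a fit with the replicate number as a term is given for the 7 genes, and for other named genes, where it changes a call against Naïve. Of the stimulus genes, Gbp2 was 16.99-fold higher in IFNγ than in Naïve (edgeR quasi-likelihood test, Benjamini-Hochberg adjusted p = 3.22e-04), Nr4a1 was 3.26-fold higher in αCD3 (adjusted p = 4.14e-04) and Nfkbia was 2.65-fold higher in LPS (adjusted p = 1.11e-06).

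On mouse build GRCm38 (mm10, GENCODE M21), the genes lie on 4 chromosomes and include a pair of neighbouring sets. Cflar (chr1:58711508-58758884, plus strand) and Casp8 (chr1:58795374-58847503, plus strand) are 36489 bases apart with no protein-coding gene between them. Casp1 (chr9:5298517-5307265) and Casp4 (chr9:5308828-5336783), both on the plus strand, are 1562 bases apart. Fas is at chr19:34290666-34327772 (plus strand), Fasl at chr1:161780689-161788495 (minus strand) and Tnfsf10 at chr3:27317028-27342427 (plus strand). The share of 31-base words found in no other gene's transcripts was 98% to 100% for Fas, Fasl, Tnfsf10, Casp1 and Casp4. It was 90.6% for Cflar, which shared 568 words with Gm9845, and 91.4% for Casp8, which shared 233 words with Gm20257, so a small part of the reads of these 2 genes could be divided with a near copy.

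Fas and Casp4, which held matches to the motifs searched below, were higher in both the IFNγ and the LPS libraries. Tnfsf10, Cflar and Casp8 were also higher in both, but held no match and are not shown. Casp1, the neighbour of Casp4, was higher in the IFNγ libraries. The stretches before the transcription starts of Fas, Casp1 and Casp4 are shown. They are RefSeq promoters on GRCm38.p6 (all plus strand, 5′ to 3′), at chr19:34290409-34290658 for Fas, chr9:5298267-5298516 for Casp1 and chr9:5308599-5308827 for Casp4, the last ended where the GENCODE gene begins. Capitals mark motif matches.
Fas: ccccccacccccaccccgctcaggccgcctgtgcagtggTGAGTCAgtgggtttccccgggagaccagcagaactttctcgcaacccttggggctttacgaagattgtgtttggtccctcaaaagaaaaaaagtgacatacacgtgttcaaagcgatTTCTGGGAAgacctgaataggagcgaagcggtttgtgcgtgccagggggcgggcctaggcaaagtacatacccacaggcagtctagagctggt
Casp1: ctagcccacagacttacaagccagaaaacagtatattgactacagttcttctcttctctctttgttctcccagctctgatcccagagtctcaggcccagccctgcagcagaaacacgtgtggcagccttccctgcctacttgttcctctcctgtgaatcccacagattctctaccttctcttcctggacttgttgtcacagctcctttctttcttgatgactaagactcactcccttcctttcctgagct
Casp4: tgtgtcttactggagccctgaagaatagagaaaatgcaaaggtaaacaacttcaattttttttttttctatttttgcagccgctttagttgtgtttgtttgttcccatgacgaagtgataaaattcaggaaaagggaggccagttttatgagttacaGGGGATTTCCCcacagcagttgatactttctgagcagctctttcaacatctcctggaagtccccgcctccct
Over the 250 bases before each start and on both strands, the letters searched were TTCNNNGAA (the GAS element bound by STAT factors), GAAANNGAAA (the core of the interferon-stimulated response element), TGANTCA (AP-1) and the NF-κB consensus. The Fas promoter held a GAS match, TTCTGGGAA, at -93 to -85 from the start and an AP-1 match, TGAGTCA, at -211 to -205. The Casp4 promoter held NF-κB matches that overlap one another between -93 and -83, or between -104 and -94 counted from a second RefSeq start. The other 5 genes, Casp1 among them, held none of these letters in this window. The Casp8 window lies inside the GENCODE gene and ends 7128 bases into it, so the stretch before that gene was not searched. Of 32851 RefSeq promoters of the same length, 7.02% held the GAS letters, 2.98% the interferon element, 6.75% the AP-1 letters and 3.9% the NF-κB consensus.

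Against Naïve, 6 of the 7 genes were higher in IFNγ (all but Fasl), 3 in αCD3 (Fas, Tnfsf10 and Cflar) and 5 in LPS (all but Fasl and Casp1), and none was lower. Over all 12122 genes, 8.17% were higher in IFNγ, 22.9% in αCD3 and 26.9% in LPS (4.27%, 15.7% and 22.3% were lower), so the background to read the LPS and αCD3 counts against is far higher than for IFNγ. The median log2 fold change of the 7 genes was 0.80 in IFNγ, 0.49 in αCD3 and 1.08 in LPS, against -0.02, -0.02 and -0.01 over all genes tested. With the replicate number in the fit, 6, 4 and 6 of the 7 were higher, beside 13.5%, 28.1% and 31% of all genes. All 3 comparisons use the same Naïve libraries. Scaling by library size alone moved the median of all genes to -0.16, -0.13 and -0.22. Of the genes called, 65.6% were higher in IFNγ, 59.3% in αCD3 and 54.7% in LPS, and with library size alone these shares were 31.4%, 44.0% and 32.8%, or 5.90%, 17.3% and 17.7% of the genes tested. The 7 genes kept the calls above under that scaling. Among the 4 groups jointly, 6 of the 7 differed, all but Fasl (adjusted p = 0.531), where 59.9% of all genes did. Fasl also passed this joint test with the replicate number in the fit (adjusted p = 0.0345).

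**Figure D1:**
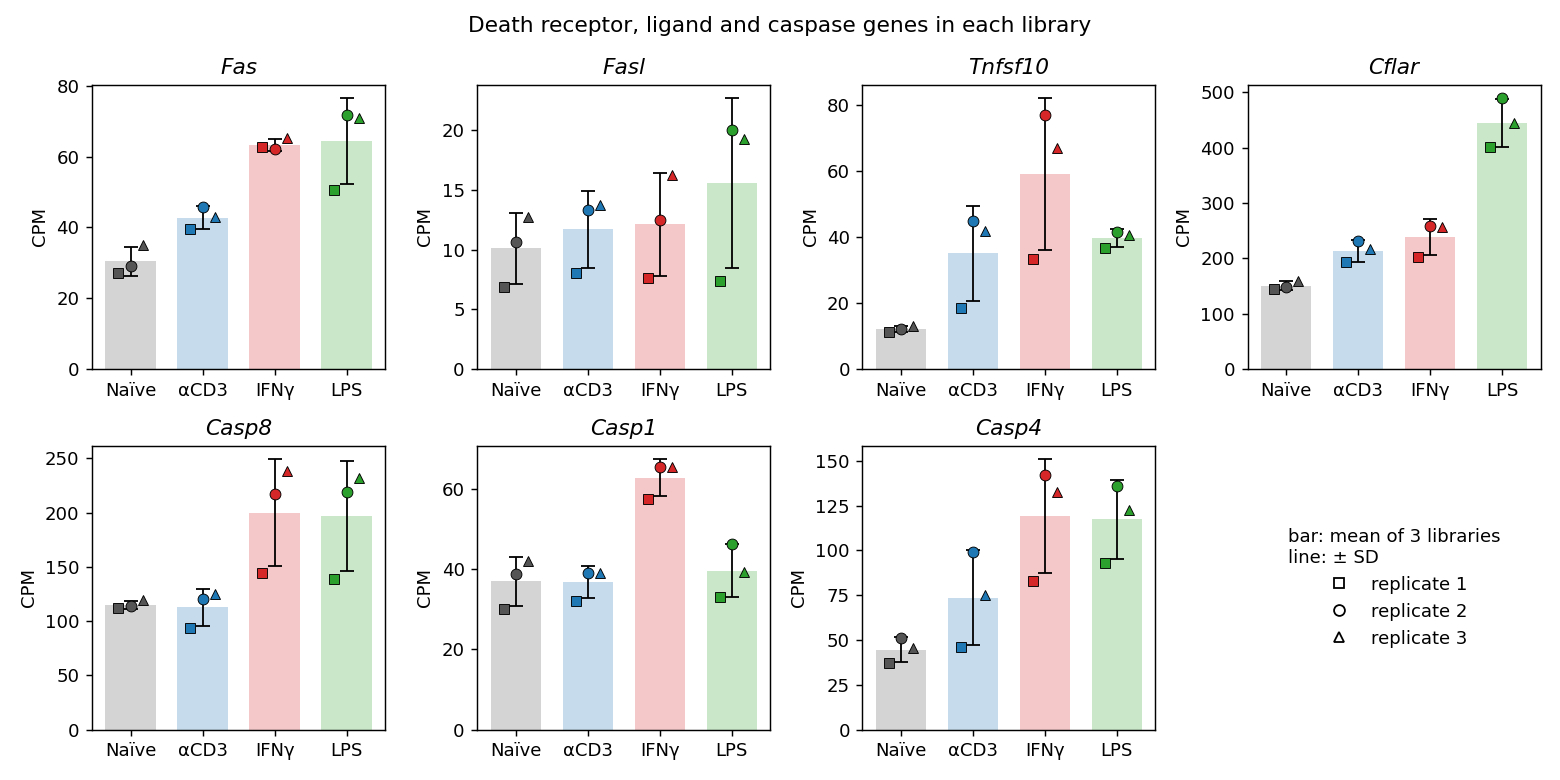
CPM of the 7 genes in each of the 12 libraries (y axis, linear, one panel per gene), by group on the x axis. Bars give the mean of 3 libraries and lines the SD, and symbols give the replicate. Cflar in LPS lay between 402 and 489 CPM, above the other 9 libraries, and Casp1 in IFNγ between 57.4 and 65.6 CPM, above the other 9.

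**Figure D2:**
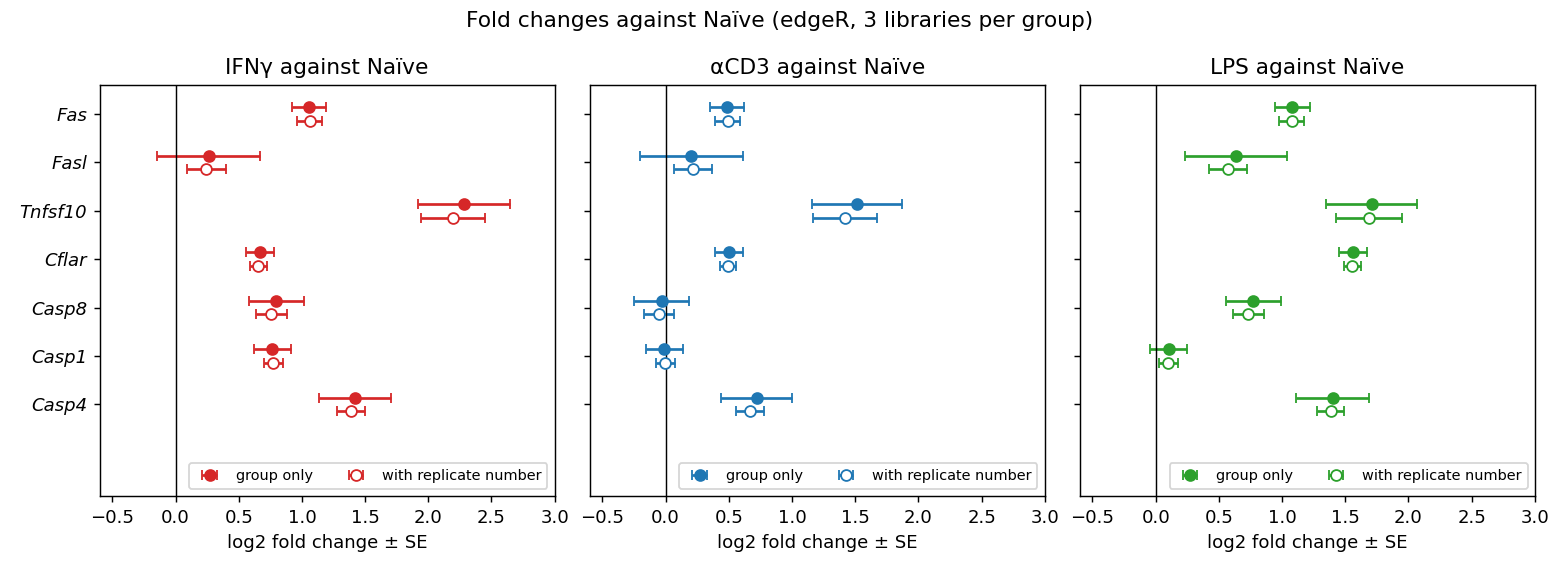
Log2 fold change against Naïve (x axis) of each gene (y axis) in IFNγ, αCD3 and LPS, with the SE from edgeR. Filled points are the fit on group only, and open points add the replicate number, which shortened the SE of Casp4 in αCD3 from 0.28 to 0.11.

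Fas, the receptor itself, rose under all 3 stimuli, about 2-fold with IFNγ and LPS and less with αCD3. In Naïve it measured 27.2, 29.2 and 35.0 CPM (replicates 1, 2 and 3), in αCD3 39.5, 45.8 and 42.9, in IFNγ 62.6, 62.1 and 65.2, and in LPS 50.5, 71.7 and 71.0. No stimulated library was as low as a Naïve one, and the αCD3 libraries lay between Naïve and the other stimuli without overlap. The log2 fold change against Naïve was 1.06 ± 0.14 (SE) in IFNγ (adjusted p = 9.62e-04), 1.08 ± 0.14 in LPS (adjusted p = 9.73e-05) and 0.49 ± 0.14 in αCD3 (adjusted p = 0.0161). The αCD3 call was lost on leaving out Naïve replicate 1 (adjusted p = 0.0615) or 2 (0.0527) or αCD3 replicate 2 (0.0618). Fas was 1.48-fold higher in IFNγ than in αCD3 (adjusted p = 0.00684) and 1.51-fold higher in LPS than in αCD3 (adjusted p = 0.011). IFNγ and LPS were not called apart (log2 difference -0.03, approximate 95% interval -0.29 to 0.23).

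The ligand of Fas, Fasl, passed the test under no stimulus in the fit on group only. It measured 6.87, 10.6 and 12.8 CPM in Naïve, 8.005, 13.3 and 13.8 in αCD3, 7.61, 12.5 and 16.3 in IFNγ and 7.36, 20.01 and 19.3 in LPS. In each group the replicate 1 library was the lowest, and every group overlapped Naïve. In LPS the log2 fold change was 0.64 ± 0.40 (adjusted p = 0.217). Adding the replicate number to the fit gave 0.57 ± 0.15 (adjusted p = 0.0079), which is a call. Leaving out LPS replicate 1 gave 0.97 (adjusted p = 0.0396). Without replicate 1 of every group, an alternative chosen after seeing the data, Fasl was likewise called higher in LPS (adjusted p = 0.00292). In IFNγ and αCD3 the values were 0.26 ± 0.41 and 0.20 ± 0.40 (adjusted p = 0.743 and 0.723), with approximate 95% intervals from -0.54 to 1.06 and from -0.59 to 1.00. Markers of NK cells, which also make Fasl, summed to 16.3 to 28.7 CPM in the 4 replicate 1 libraries and to 30.2 to 66.3 CPM in the other 8. By group the sum was 23.2 to 65.2 CPM in Naïve, 18.6 to 36.9 in αCD3, 28.7 to 66.3 in IFNγ and 16.3 to 35.6 in LPS, so its mean was lower in LPS (27.3 CPM) than in Naïve (51.1 CPM). Fcgr3, which macrophages also express, made up 32.4 CPM of the Naïve mean and 13.9 CPM of the LPS mean. Of the 6 markers, 5 had a lower mean in LPS than in Naïve and 1, Ncr1, a higher one (3.93 against 1.95 CPM). The part of NK cells in the Fasl values was not tested.

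Tnfsf10, the ligand TRAIL, had the largest fold changes of the 7 in IFNγ, αCD3 and LPS alike. It measured 11.2, 12.2 and 13.0 CPM in Naïve, 18.4, 44.9 and 41.7 in αCD3, 33.2, 76.96 and 66.9 in IFNγ and 36.5, 41.6 and 40.7 in LPS. Every stimulated library was above every Naïve library, and in αCD3 and IFNγ replicate 1 was at less than 0.5 of the level of the other replicates. The log2 fold change was 2.28 ± 0.36 in IFNγ (4.87-fold, adjusted p = 0.00271), 1.71 ± 0.36 in LPS (3.27-fold, adjusted p = 0.00287) and 1.51 ± 0.36 in αCD3 (2.86-fold, adjusted p = 0.00756). Between IFNγ and αCD3 the difference was 0.77 ± 0.34 (adjusted p = 0.102), and with the replicate number in the fit 0.78 ± 0.23 (adjusted p = 0.0247), higher in IFNγ. Leaving out IFNγ replicate 1 gave 1.05 (adjusted p = 0.0233) against αCD3 and 0.87 (adjusted p = 0.0499) against LPS, a comparison that was not called with all libraries (0.57 ± 0.34, adjusted p = 0.204). LPS and αCD3 were not called apart (log2 difference of αCD3 minus LPS -0.20, approximate 95% interval -0.86 to 0.47).

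Cflar, whose protein holds Casp8 back, rose under all 3 stimuli and most in LPS. It measured 145.1, 147.3 and 159.7 CPM in Naïve, 192.6, 230.5 and 216.5 in αCD3, 201.7, 258.3 and 257.2 in IFNγ and 401.9, 488.8 and 444.1 in LPS. The LPS libraries stood above all others, and αCD3 and IFNγ overlapped each other but not Naïve. Against Naïve the log2 fold change was 1.56 ± 0.11 in LPS (2.95-fold, adjusted p = 3.43e-06), 0.67 ± 0.11 in IFNγ (adjusted p = 0.00328) and 0.50 ± 0.11 in αCD3 (adjusted p = 0.00508). Cflar was 1.86-fold higher in LPS than in IFNγ (adjusted p = 9.22e-05) and 2.09-fold higher than in αCD3 (adjusted p = 1.35e-04), and these 5 calls held in all 21 alternatives. IFNγ and αCD3 differed by 0.17 (approximate 95% interval -0.05 to 0.38, adjusted p = 0.271).

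Casp8, the initiator caspase of the death receptor complex, was higher in IFNγ and LPS and not in αCD3. It measured 112.2, 113.9 and 119.1 CPM in Naïve, 93.2, 120.2 and 124.8 in αCD3, 144.6, 216.8 and 238.5 in IFNγ and 138.5, 219.0 and 232.1 in LPS. The αCD3 libraries overlapped Naïve, and all IFNγ and LPS libraries were above both, with replicate 1 the lowest of each. The log2 fold change was 0.80 ± 0.22 in IFNγ (adjusted p = 0.0363), 0.77 ± 0.22 in LPS (adjusted p = 0.0129) and -0.03 ± 0.22 in αCD3 (adjusted p = 0.924, approximate 95% interval -0.45 to 0.39). The IFNγ call was lost without any one of the 3 Naïve libraries, αCD3 replicate 2 or 3, or IFNγ replicate 2 or 3, and with no count filter (log2 fold change 0.65 to 0.82, adjusted p = 0.0506 to 0.133), and the LPS call without LPS replicate 3 (adjusted p = 0.0534). Both passed with the replicate number in the fit, at adjusted p = 0.00221 and 7.51e-04. Casp8 was 1.77-fold higher in IFNγ than in αCD3 (adjusted p = 0.0122) and 1.75-fold higher in LPS than in αCD3 (adjusted p = 0.0259). The latter was lost in a fit on these 2 groups alone (adjusted p = 0.0623) and when αCD3 replicate 1 or 2 or LPS replicate 2 or 3 was left out (adjusted p = 0.0881, 0.0529, 0.0913 and 0.0974). IFNγ and LPS were not called apart (log2 difference 0.02, approximate 95% interval -0.40 to 0.44).

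The balance of Cflar to Casp8 can be read within each library as the log2 ratio of their CPM. This ratio is not scaled for exon length (12669 bases in Cflar and 2893 in Casp8). Its change between groups can therefore be read, but not its sign. It was 0.37, 0.37 and 0.42 in Naïve, 1.05, 0.94 and 0.79 in αCD3, 0.48, 0.25 and 0.11 in IFNγ and 1.54, 1.16 and 0.94 in LPS. The αCD3 and LPS libraries were all above the Naïve libraries, and the IFNγ libraries lay on both sides of them. The mean ratio differed from Naïve by 0.54 in αCD3 and 0.82 in LPS (2-sided exact permutation test, p = 0.1 each, the smallest that 3 against 3 libraries allow, adjusted over 6 comparisons 0.15) and by -0.11 in IFNγ (exact p = 0.4). IFNγ was lower than LPS by 0.93 and than αCD3 by 0.65 (exact p = 0.1 each), and αCD3 and LPS differed by 0.28 (exact p = 0.3). Set against the library of the same replicate number, the ratio was above Naïve in 3 of 3 pairs in αCD3 and in LPS, above αCD3 in 3 of 3 pairs in LPS, and above Naïve in 1 of 3 pairs in IFNγ. The permutation test does not use this pairing.

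**Figure D3:**
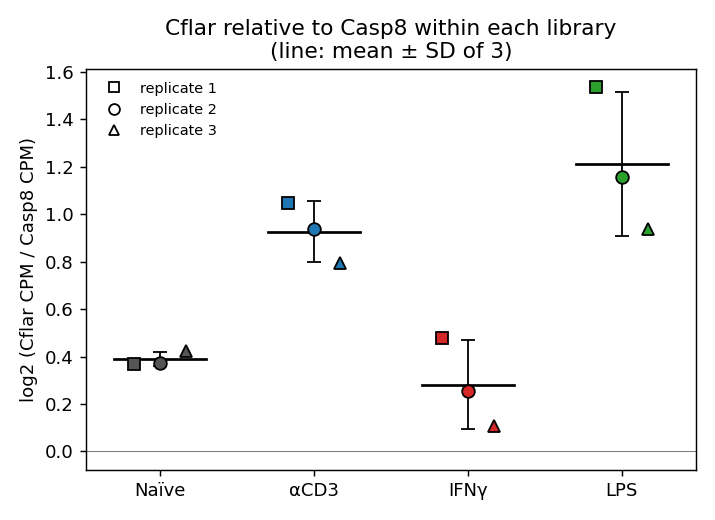
Log2 ratio of Cflar to Casp8 CPM within each library (y axis) by group (x axis), with symbols for the replicates, and a horizontal line and bar for the mean and SD of 3. The IFNγ libraries (0.11 to 0.48) sit around the Naïve level, and the αCD3 and LPS libraries sit between 0.79 and 1.54. The ratio is not scaled for exon length, so its sign is not read.

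Casp1, the caspase that matures interleukin-1β, was higher in IFNγ and not called in αCD3 or LPS. It measured 30.1, 38.8 and 42.1 CPM in Naïve, 32.1, 39.0 and 39.1 in αCD3, 57.4, 65.4 and 65.6 in IFNγ and 33.1, 46.4 and 39.3 in LPS. The IFNγ libraries were above the other 9, and the other groups overlapped each other. Against Naïve the log2 fold change was 0.77 ± 0.15 in IFNγ (1.70-fold, adjusted p = 0.00694), -0.01 ± 0.15 in αCD3 (adjusted p = 0.966) and 0.10 ± 0.15 in LPS (adjusted p = 0.597, approximate 95% interval -0.19 to 0.39). IFNγ was 1.71-fold above αCD3 (adjusted p = 0.00193) and 1.58-fold above LPS (adjusted p = 0.00453), and these calls and that against Naïve held in all 21 alternatives. The summed myeloid markers were also highest in IFNγ, with 7 of the 14 higher in mean than in Naïve, among them Mpeg1 (395 CPM in Naïve and 970 in IFNγ), Cybb (180 and 469 CPM) and Fcgr1 (7.96 and 25.98 CPM), and 7 lower, such as Lyz2 (234 and 231 CPM) and Csf1r (109 and 57.6 CPM). The mean of the sum was 1286 CPM in Naïve and 2056 CPM in IFNγ, and this difference rested on Mpeg1 and Cybb. The part of myeloid cells in the Casp1 and Casp4 levels was not tested.

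Casp4, the neighbour of Casp1 and the caspase that binds LPS inside cells, was higher in both IFNγ and LPS. It measured 37.2, 50.9 and 45.6 CPM in Naïve, 46.4, 99.3 and 75.1 in αCD3, 82.8, 142.1 and 132.5 in IFNγ and 92.8, 136.2 and 122.8 in LPS. All IFNγ and LPS libraries were above all Naïve libraries, whereas αCD3 replicate 1 fell within the Naïve range. The log2 fold change was 1.42 ± 0.29 in IFNγ (2.68-fold, adjusted p = 0.00951), 1.40 ± 0.29 in LPS (2.64-fold, adjusted p = 0.00247) and 0.72 ± 0.28 in αCD3 (adjusted p = 0.0679). With the replicate number in the fit the αCD3 value was 0.67 ± 0.11 and was called higher (adjusted p = 6.53e-04), and DESeq2 (adjusted p = 0.0308) and the fit without αCD3 replicate 1 (adjusted p = 0.0118) called it too. IFNγ exceeded αCD3 by 0.70 ± 0.28 (adjusted p = 0.0748) and LPS exceeded αCD3, given as αCD3 minus LPS, by -0.68 ± 0.28 (adjusted p = 0.119). The fit with the replicate number called both (0.72 ± 0.11, adjusted p = 3.44e-04, and -0.72 ± 0.11, adjusted p = 7.75e-04). The first was also called by DESeq2 (adjusted p = 0.0344) and on leaving out αCD3 replicate 2 (0.0294) or IFNγ replicate 1 (0.0338). IFNγ and LPS differed by 0.02 (approximate 95% interval -0.53 to 0.57).

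Among stimuli compared directly, 3 of the 7 genes were higher in IFNγ than in αCD3 (Fas, Casp1 and Casp8), where 15.8% of all genes were. It was 5 of 7 with the replicate number in the fit, or without IFNγ replicate 1, with Tnfsf10 and Casp4 added (23.7% of all genes were higher in the fit with the replicate number and 13.0% without IFNγ replicate 1). Between IFNγ and LPS, Casp1 was higher in IFNγ and Cflar was lower, where 18% of all genes were higher and 22.4% lower (40.4% in either direction). Between αCD3 and LPS, Fas, Cflar and Casp8 were lower in αCD3, where 9.76% of all genes were (9.64% were higher and 19.4% called in either direction). Of genes called in these last comparisons, 44.6% were higher in IFNγ than in LPS and 49.7% higher in αCD3 than in LPS, and by library size alone 52.6% and 68.8%.

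Per kilobase of merged exons, which allows genes to be compared with each other, Casp8 was the highest in Naïve at 39.8 ± 1.2 CPM per kb (SD, n = 3). Casp1 followed at 24.7 ± 4.1, then Fas at 14.8 ± 2.0, Casp4 at 12.01 ± 1.9 and Cflar at 11.9 ± 0.62. The levels of Fas, Casp4 and Cflar lay within their SDs of one another or close to it. Fasl was at 5.21 ± 1.5 and Tnfsf10 at 2.30 ± 0.18 CPM per kb. In LPS, Cflar reached 35.1 ± 3.4 beside Casp8 at 67.9 ± 17.5. The merged exons of Cflar hold 13 annotated transcripts and 12669 bases, so its level per kb is understated if short transcripts prevail. In IFNγ, Tnfsf10 reached 11.2 ± 4.4 CPM per kb, above Fasl at 6.26 ± 2.2 in the mean, although replicate 1 of Tnfsf10 (6.30) lay within the Fasl range.

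Across the 12 libraries, which share their group and replicate number, log2 CPM of Tnfsf10 and Casp4 had a Pearson correlation of 0.94 and Fas and Casp4 of 0.92, while Cflar and Casp1 had 0.16. The 3 genes most like each member, out of 9449 genes whose mean reached 5 CPM, are given as a description. For Fas they were Gbp2b, Cd274 and Ly75 (0.98, 0.98 and 0.97). For Tnfsf10 they were Sp110, Ifit2 and Etnk1 (0.99 each), and for Casp4 Parp12, Ly6c2 and Herc6 (0.99 each). Gbp2b, Ifit2 and Parp12 are interferon-inducible genes. Casp8 was most like Tbrg1, Cd86 and Mxd1 (0.97, 0.96 and 0.96), Cflar like Ppp1r15b, Gypc and Cd40 (0.97 each), and Casp1 like Fbxo4, Tmbim4 and Dcun1d3 (0.97, 0.96 and 0.96). For Fasl the values were lower, 0.92 for Actg1, Nabp1 and Ndufa7.

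Beyond these 7 genes, lists of 74 further death receptor, caspase and inflammasome genes were read, of which 69 were tested. In IFNγ 14 of the 69 were higher than in Naïve and 1 lower, in αCD3 13 higher and 11 lower, and in LPS 27 higher and 13 lower. That is 21.7%, 34.8% and 58.0% of the 69, where 12.4%, 38.6% and 49.3% of all genes were called in either direction. The median log2 fold change was 0.12, -0.03 and 0.19. With the replicate number in the fit 27, 32 and 48 of the 69 were called in IFNγ, αCD3 and LPS (39.1%, 46.4% and 69.6%, beside 24.9%, 52.4% and 59.5% of all genes), and no call against Naïve was lost. Without αCD3 replicate 2 the αCD3 count was 13, and the share of all genes called in αCD3 was 25.4%.

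**Figure D4:**
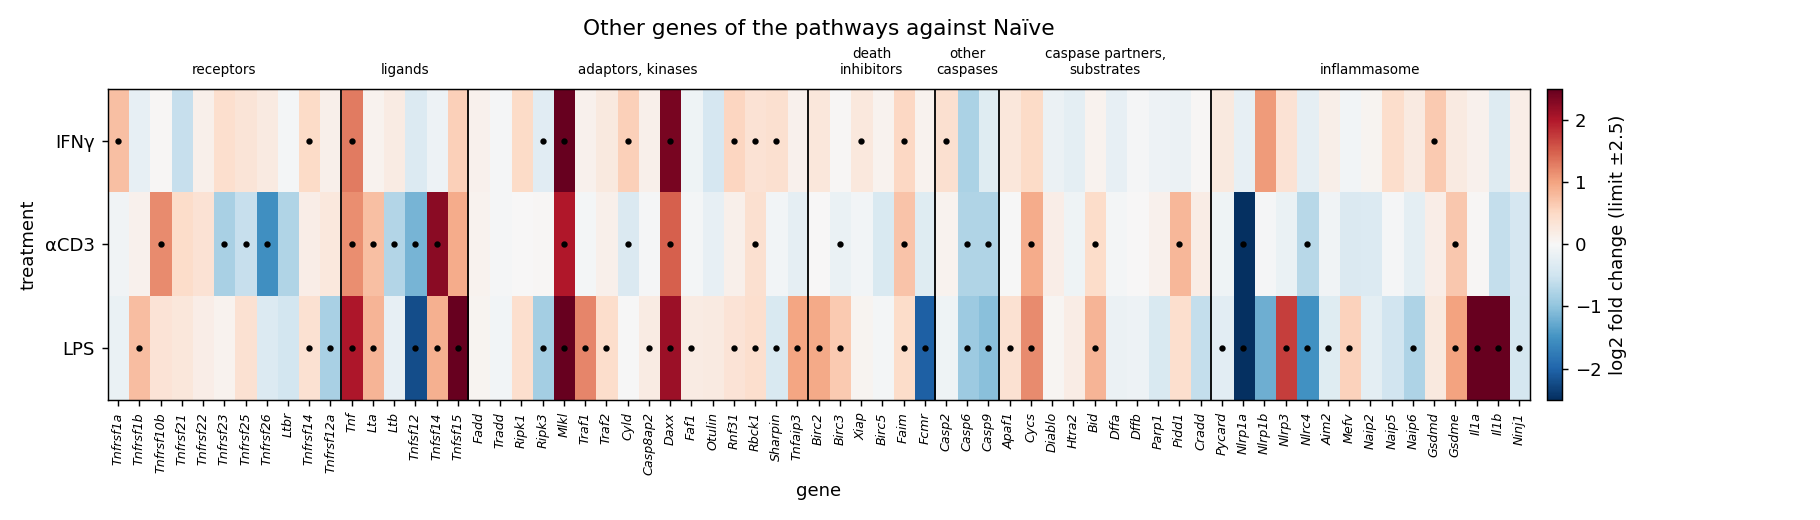
Log2 fold change against Naïve (colour, limited to ±2.5) of 67 of the tested genes (x axis, grouped by list) in IFNγ, αCD3 and LPS (y axis). Dots mark adjusted p under 0.05, 14 genes in IFNγ, 23 in αCD3 and 39 in LPS.

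Of 11 other receptors of the TNF family, 2 were higher in IFNγ, 1 higher and 3 lower in αCD3, and 2 higher and 1 lower in LPS, beside 12.4%, 38.6% and 49.3% of all genes called in either direction. With the replicate number in the fit, 4, 7 and 6 of the 11 were called in IFNγ, αCD3 and LPS, where 24.9%, 52.4% and 59.5% of all genes were. Tnfrsf10b, the mouse receptor for TRAIL that carries a death domain, was 2.27-fold higher in αCD3 (7.15 ± 1.5 CPM in Naïve and 16.3 ± 1.3 in αCD3, adjusted p = 0.00228). Its ligand Tnfsf10 was also higher there. Tnfrsf26 fell from 94.8 ± 23 to 32.4 ± 17 CPM (adjusted p = 0.00386) and Tnfrsf23 from 13.5 ± 2.9 to 7.71 ± 1.7 CPM (adjusted p = 0.0166) in αCD3. Tnfrsf23 was also called 1.33-fold higher in IFNγ with the replicate number in the fit (adjusted p = 0.0094, against 0.278 without it). These 2 are close paralogues whose reads could be divided, and the Tnfrsf23 call in αCD3 was lost without Naïve replicate 1 (adjusted p = 0.0682), αCD3 replicate 2 (0.0683) or αCD3 replicate 3 (0.0567). Tnfrsf1a, the TNF receptor with a death domain, was 1.68-fold higher in IFNγ (adjusted p = 0.0168), which did not hold when Naïve replicate 1 (0.0606), Naïve replicate 2 (0.0515) or IFNγ replicate 3 (0.0704) was left out. Tnfrsf1b, the TNF receptor without one, was 1.71-fold higher in LPS (adjusted p = 3.39e-04). Tnfrsf14, the receptor of LIGHT, was 1.40-fold higher in IFNγ and 1.31-fold in LPS (adjusted p = 0.0123 and 0.0104). The first was lost without Naïve replicate 2 (0.0552) and without replicate 1 of every group (0.0741), and both with library size alone (0.0532 and 0.2). Tnfrsf12a fell in LPS from 5.16 ± 0.65 to 2.96 ± 0.74 CPM (adjusted p = 0.0102).

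Of 6 other ligands, 1 was higher in IFNγ, 3 higher and 2 lower in αCD3, and 4 higher and 1 lower in LPS. Of all genes, 8.17% were higher and 4.27% lower in IFNγ, 22.9% and 15.7% in αCD3, and 26.9% and 22.3% in LPS. The replicate number in the fit left the counts of the 6 as they were, while 24.9%, 52.4% and 59.5% of all genes were called. Tnf rose under all 3 stimuli, from 16.1 ± 0.94 CPM in Naïve to 36.3 ± 5.3 in αCD3 (adjusted p = 6.63e-05), 39.9 ± 4.1 in IFNγ (adjusted p = 3.21e-04) and 65.6 ± 7.7 in LPS (adjusted p = 2.13e-06). Tnfsf14 (LIGHT, a ligand of activated T cells) was 4.78-fold higher in αCD3 (5.15 ± 0.62 to 24.7 ± 8.2 CPM, adjusted p = 4.87e-05) and 1.86-fold in LPS (adjusted p = 0.00898). Ltb fell in αCD3 from 321 ± 36 to 193 ± 53 CPM (adjusted p = 0.00739). In LPS, Tnfsf15 rose from 0.237 ± 0.16 to 2.12 ± 0.30 CPM (adjusted p = 2.75e-04) and Tnfsf12 fell from 5.07 ± 2.1 to 1.07 ± 0.41 CPM (adjusted p = 0.00208). Tnfsf12 was also called lower in αCD3 (2.29 ± 0.76 CPM, adjusted p = 0.0434), which was lost in 7 of 21 alternatives (adjusted p up to 0.144), those without Naïve replicate 2 or 3 or αCD3 replicate 1 or 2 or 3 or IFNγ replicate 2 among them.

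Of 16 adaptors, kinases and ubiquitin enzymes of the receptor complexes, 6 were higher and 1 lower in IFNγ, 3 higher and 1 lower in αCD3, and 9 higher and 2 lower in LPS, or 43.8%, 25% and 68.8% called, where 12.4%, 38.6% and 49.3% of all genes were. Of the 16, 10, 5 and 13 were called in IFNγ, αCD3 and LPS with the replicate number in the fit, where 24.9%, 52.4% and 59.5% of all genes were, so the αCD3 share lay below that of all genes in both fits. Ripk1, the kinase at the receptor complex, was among those added in IFNγ (1.41-fold higher, adjusted p = 0.0175, against 0.0788 without it) and LPS (1.32-fold higher, 0.0193 against 0.0519). It was chosen after its values were seen. Fadd itself was called in none of the 3. Daxx, a Fas-binding and histone chaperone protein, rose from 109 ± 2.8 CPM to 564 ± 200 in IFNγ (adjusted p = 0.00252), 309 ± 140 in αCD3 (adjusted p = 0.00807) and 477 ± 79 in LPS (adjusted p = 8.8e-04). Rnf31, a subunit of the linear ubiquitin ligase, was 1.46-fold higher in IFNγ (adjusted p = 5.1e-04) and 1.26-fold in LPS (adjusted p = 0.00121), the latter lost with library size alone (0.121). Cyld, which removes such chains, was 1.52-fold higher in IFNγ (adjusted p = 0.00469) and 1.29-fold lower in αCD3 (adjusted p = 0.0201), the latter lost in 5 of 21 alternatives (adjusted p up to 0.0817), those without Naïve replicate 1 or 3 or αCD3 replicate 2 or 3 among them. Rbck1, a subunit of the same ligase as Rnf31, was 1.29-fold higher in IFNγ, 1.32-fold in αCD3 and 1.33-fold in LPS (adjusted p = 0.0133, 0.00279 and 0.00152), the first lost without Naïve replicate 3 (0.0611) or IFNγ replicate 2 (0.0639). Mlkl, the pore-forming protein of necroptosis, rose from 3.57 ± 0.44 CPM to 33.9 ± 15 in IFNγ (adjusted p = 0.00478) and 32.6 ± 15 in LPS (adjusted p = 0.00111). In αCD3 it rose to 14.7 ± 7.5 CPM (adjusted p = 0.0183), a call lost in 5 of 21 alternatives (adjusted p up to 0.141), those without Naïve replicate 1 (0.0638) or 2 (0.0501) and without αCD3 replicate 2 (0.0698) or 3 (0.0567) among them. In LPS, Traf1 was 2.34-fold higher (adjusted p = 4.96e-06) and Tnfaip3, an NF-κB-induced brake, 1.98-fold higher (adjusted p = 1.4e-05). In αCD3, Tnfaip3 was at 344 ± 41 CPM beside 402 ± 37 in Naïve (adjusted p = 0.0693), and was called lower with the replicate number in the fit (0.013). Ripk3, the kinase that activates Mlkl, fell in LPS from 41.3 ± 1.8 to 22.9 ± 2.3 CPM (adjusted p = 1.46e-05) and in IFNγ to 34.0 ± 0.76 CPM (adjusted p = 0.0384), the latter lost in 8 of 21 alternatives (adjusted p up to 0.131), those without Naïve replicate 1 or 2 or 3 or αCD3 replicate 3 or IFNγ replicate 1 or 2 or 3 or LPS replicate 3.

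Of 6 genes listed as inhibitors of death, 2 were higher in IFNγ, and 1 was higher and 1 lower in αCD3. In LPS 3 were higher and 1, Fcmr, was lower. That is 33.3%, 33.3% and 66.7% called, where 12.4%, 38.6% and 49.3% of all genes were. The αCD3 count was 3 with the replicate number in the fit (52.4% of all genes), and the others did not move (24.9% and 59.5% of all genes in IFNγ and LPS). Faim, an inhibitor of Fas-induced apoptosis, was higher under all 3 stimuli, from 17.2 ± 0.29 CPM to 24.7 ± 0.62 in IFNγ, 28.3 ± 1.1 in αCD3 and 23.7 ± 1.8 in LPS (adjusted p = 0.00161, 4.83e-05 and 5.7e-04). Birc3, an NF-κB-induced ubiquitin ligase, was 1.57-fold higher in LPS (adjusted p = 9.88e-06). In αCD3 it was 1.13-fold lower (adjusted p = 0.0334), which was lost in 7 of 21 alternatives (adjusted p up to 0.102), those without Naïve replicate 2 or 3 or any one αCD3 library among them. Fcmr fell in LPS from 239 ± 22 to 58.0 ± 25 CPM (adjusted p = 5.09e-05), where 9 of the 12 B cell markers also had a lower mean than in Naïve (summed mean 2493 against 3818 CPM). The part of B cells in the Fcmr value was not tested. Xiap was 1.21-fold higher in IFNγ (adjusted p = 0.0429), which was lost in 12 of 21 alternatives (adjusted p up to 0.183), among them library size alone and leaving out any of 8 single libraries (Naïve 1, 2 or 3, αCD3 3, IFNγ 2 or 3, LPS 2 or 3).

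Among the other caspases, Casp9, the initiator of the mitochondrial pathway, fell from 29.7 ± 0.42 CPM to 17.6 ± 3.2 in αCD3 (adjusted p = 0.00131) and 14.3 ± 2.0 in LPS (adjusted p = 1.12e-04). In IFNγ it was at 24.1 ± 1.5 CPM (adjusted p = 0.18), and was called lower with the replicate number in the fit (0.0405). Casp6 fell from 46.5 ± 11 CPM to 27.5 ± 5.2 in αCD3 (adjusted p = 0.0268) and 24.8 ± 7.7 in LPS (adjusted p = 0.00999), the former lost without Naïve replicate 2 or 3 or αCD3 replicate 1 or 2 (adjusted p = 0.0779 to 0.0952). In IFNγ Casp6 was at 26.98 ± 2.2 CPM, close to the αCD3 level, with an adjusted p of 0.0572. It was called lower there in 7 of 21 alternatives, the fit with the replicate number among them (0.00251). Casp2 was 1.32-fold higher in IFNγ (adjusted p = 0.0226), lost in 6 of 21 alternatives (adjusted p up to 0.109), those without Naïve replicate 2 or 3 or IFNγ replicate 1 or 2 and with library size alone among them.

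Of 10 caspase partners and substrates, 3 were higher in αCD3 and 3 in LPS (22.9% and 26.9% of all genes were), and in IFNγ edgeR called 0 (3 at an unadjusted p under 0.05), DESeq2 0, limma 0 and edgeR with the replicate number 3 (24.9% of all genes). That fit called 4 in αCD3 and 4 in LPS (52.4% and 59.5% of all genes). Bid, which Casp8 cuts to reach mitochondria, rose from 46.3 ± 2.5 CPM to 63.4 ± 7.1 in αCD3 (adjusted p = 0.00252) and 83.1 ± 6.2 in LPS (adjusted p = 3.07e-05). Cycs, cytochrome c, was 1.90-fold higher in αCD3 (adjusted p = 0.00562) and 2.28-fold in LPS (adjusted p = 9.71e-04). In IFNγ it was at 62.4 ± 13 CPM beside 44.95 ± 5.7 in Naïve (adjusted p = 0.182), and was called higher with the replicate number in the fit (3.97e-04). Pidd1 was 1.77-fold higher in αCD3 (adjusted p = 0.0153), lost without Naïve replicate 3 (0.058) or αCD3 replicate 2 (0.0675). Apaf1, the platform for Casp9, was 1.30-fold higher in LPS (adjusted p = 0.0403), lost in 14 of 21 alternatives (adjusted p up to 0.29), among them library size alone and leaving out any single library except αCD3 replicates 1 and 2 and LPS replicate 1.

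Of 15 inflammasome genes tested, 1 was higher in IFNγ, 1 higher and 2 lower in αCD3, and 5 higher and 6 lower in LPS, beside 12.4%, 38.6% and 49.3% of all genes called in either direction. Adding the replicate number, 3, 5 and 13 of the 15 were called, beside 24.9%, 52.4% and 59.5% of all genes. Gsdmd, the pore protein cut by Casp1 and Casp4, was 1.57-fold higher in IFNγ (55.5 ± 7.6 to 86.8 ± 10 CPM, adjusted p = 0.0097). It was also called with the replicate number in the fit in αCD3 (1.12-fold higher, adjusted p = 0.0367) and LPS (1.19-fold higher, adjusted p = 0.00461). In LPS, Nlrp3 rose from 12.7 ± 3.3 to 41.9 ± 4.0 CPM (adjusted p = 2.74e-05), and Il1a measured 3.61, 5.24 and 7.81 CPM in Naïve and 24.0, 102 and 127 in LPS (adjusted p = 2.33e-04), with replicate 1 the lowest. Nlrc4 fell from 15.2 ± 0.18 CPM to 9.37 ± 1.4 in αCD3 (adjusted p = 0.00567) and 5.36 ± 0.65 in LPS (adjusted p = 3.88e-05). Gsdme was 2.00-fold higher in LPS (4.10 ± 0.87 to 8.18 ± 1.4 CPM, adjusted p = 0.00251) and 1.60-fold in αCD3 (adjusted p = 0.0251), the latter lost without Naïve replicate 1 (0.089) or αCD3 replicate 2 (0.086) or 3 (0.0742). Myeloid cells are a main known source of Nlrp3 and Il1a. Of the 14 myeloid markers, 4 had a higher mean in LPS than in Naïve (Mpeg1, Cybb, Cd14 and Fcer1g) and 10 a lower one (Lyz2 and Csf1r among them), and their summed level was 850 to 1506 CPM in Naïve and 1006 to 1630 in LPS. Their part in these values was not tested.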

How the data were processed

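Polyadenylated RNA of the 12 libraries was sequenced by the authors (75 cycles, NextSeq) and quantified with Kallisto against mm10. The deposited values are estimated counts per gene symbol, which need not be whole, with all libraries in 1 table. The authors state DESeq2 (1.24.0) for their own tests. Here the estimated counts were rounded and tested with edgeR (4.0.16, R 4.3.3): TMM scaling, filterByExpr (12122 genes kept), a quasi-likelihood fit on group with all 12 libraries, Benjamini-Hochberg adjustment over 12122 genes and a threshold of 0.05. A call is an adjusted p below it. CPM are on TMM-scaled library sizes. Depth was 10196248 to 27610175 counts, so members held 72 to 5815 counts per library. The approximate 95% intervals are the estimate with the normal multiple of its SE.

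The labels do not say what a replicate number marks. Residuals of all 18 pairs of libraries with the same number correlated at 0.12 to 0.40 (other pairs at -0.35 to 0.10), so the numbers were taken to pair the libraries. No 2 libraries of a group duplicated each other. For αCD3 and LPS the sample labels give µg/ml and the protocol text mg/ml, and the former is used. The members, lists and tests were chosen with earlier results of these data known. Of each list, up to 3 genes with the smallest adjusted p among those called, at 1 CPM or more, were named for each stimulus, plus other caspases tested, some of which are not reported here. Alternatives were DESeq2 size factors, library size alone, no count filter, DESeq2 (1.42.0), limma-voom (3.58.1), the replicate number as a block, only the 2 groups compared, unrounded counts, each library left out and, added after seeing the data, replicate 1 of every group left out. Promoters were those of RefSeq, all 7 members matched by symbol.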

Additional observations from a re-analysis of the deposited data

How the results depend on the processing

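Of 882 recomputed fold changes of the 7 genes, 844 kept their direction and side of the threshold, 17 fell short of it, 21 passed it anew and 0 reversed. The counts of the 7 genes called stayed within 1.5 times of the reported count in all 21 alternatives for each stimulus against Naïve. With the replicate number as a block (pairing of the libraries), the count in IFNγ against αCD3 went from 3 to 5, pathway genes in IFNγ from 15 to 27, and all genes from 1508 to 3020 in IFNγ and from 2351 to 4202 in αCD3 against LPS. The block changed no other call of the 7 genes than those of Fasl, Tnfsf10 and Casp4 given above. Library size alone gave 2279 genes in IFNγ against Naïve, and a fit on only the αCD3 and LPS libraries 1440. Leaving out single libraries gave 787 to 1651 genes in IFNγ against Naïve, lowest without IFNγ replicate 2. It gave 1429 to 2590 in αCD3 against LPS, lowest without LPS replicate 2. Pathway genes in αCD3 against Naïve then ranged from 13 to 28, and the 7 genes called in IFNγ against αCD3 from 3 to 5. Without replicate 1 of every group, the counts were 25 pathway and 2837 genes in IFNγ against Naïve, 5 of the 7 genes in IFNγ against αCD3, 4 in IFNγ against LPS (2 with all libraries, Fasl and Tnfsf10 added), 5 in αCD3 against LPS (3 with all libraries, Fasl and Casp4 added) and 3582 genes in αCD3 against LPS. In that fit the share of all genes called was also higher, at 45.4%, 47.8% and 29.4% in these last 3 comparisons (37.2%, 40.4% and 19.4% with all libraries). The causes of these moves were not tested. Fasl was measured at 72 to 240 counts per library, the fewest of the 7.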
